A study of Mus musculus with 2 samples.

Results

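The genes described here are 32 enzymes, regulators and carriers of sterol and fatty acid synthesis. They were taken by name from a list that was drawn up with earlier results of these data known. All 32 were found by symbol in the deposited table of 26037 genes, where Sc4mol is the older symbol of Msmo1. They comprised 16 sterol synthesis enzymes, 11 fatty acid synthesis enzymes and 5 genes placed in neither group, namely 4 regulators and the sterol carrier gene Stard4. The study sequenced polyadenylated RNA from primary osteoclast cultures of C57BL/6 mice, with 1 library labelled control and 1 library labelled MMP9 KO. Both cultures were grown from bone marrow of animals aged 6 to 8 weeks, first in 5 ng/ml M-CSF, the growth factor of macrophages, and then in 30 ng/ml M-CSF for 3 days, and both received RANKL, the cytokine that turns macrophages into osteoclasts, for 3 days. The labels give 10% FBS (fetal bovine serum) for both groups and name no other agent or allele in either. The sources used here do not say how many animals went into each culture. The table's column headings add "NCsh" to the control and "sh" to the knockout without explanation, so "knockout" follows the labels here and does not say how Mmp9 was lowered.

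Cells make cholesterol from acetyl-CoA through mevalonate, farnesyl diphosphate, squalene and lanosterol. Mevalonate-derived isoprenoids also anchor the small GTPases that osteoclasts need for their ruffled border, and the nitrogen-containing bisphosphonates used against bone loss act on osteoclasts by blocking farnesyl diphosphate synthase. Fatty acids are built from the same acetyl-CoA by acetyl-CoA carboxylase and fatty acid synthase, and are then lengthened by elongases and given double bonds by desaturases. Both branches are driven by the SREBP transcription factors, which are held in the endoplasmic reticulum by SCAP and INSIG proteins when sterols are plentiful. SREBP2 acts mainly on the sterol branch, and SREBP1 mainly on the fatty acid branch. SREBP proteins commonly act on promoters together with NF-Y, which binds the letters CCAAT.

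Promoter sequences of 5 members are shown to show where these letters lie. They were picked by their ratios, their matches or their role, with results known. Each run is the 250 bases before the RefSeq transcription start (GRCm38.p6), read 5′ to 3′ on the gene's strand. Capitals mark CCAAT, or ATTGG where CCAAT lies on the other strand. Mvk had the most matches of the sterol enzymes, Ebp had the lowest ratio of that branch, Fasn is the fatty acid synthase gene, and Fads2 and Elovl6 had the highest ratios of all members. The windows are chr5:114444019-114444268 on the plus strand for Mvk, chrX:8193513-8193762 on the minus strand for Ebp, chr11:120824548-120824797 on the minus strand for Fasn, chr19:10101504-10101753 on the minus strand for Fads2 and chr3:129532136-129532385 on the plus strand for Elovl6.
Mvk: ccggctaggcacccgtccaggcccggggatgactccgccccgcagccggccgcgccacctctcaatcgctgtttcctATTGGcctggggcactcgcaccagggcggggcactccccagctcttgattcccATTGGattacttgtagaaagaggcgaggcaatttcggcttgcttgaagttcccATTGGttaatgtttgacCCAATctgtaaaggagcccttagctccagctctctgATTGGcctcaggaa
Ebp: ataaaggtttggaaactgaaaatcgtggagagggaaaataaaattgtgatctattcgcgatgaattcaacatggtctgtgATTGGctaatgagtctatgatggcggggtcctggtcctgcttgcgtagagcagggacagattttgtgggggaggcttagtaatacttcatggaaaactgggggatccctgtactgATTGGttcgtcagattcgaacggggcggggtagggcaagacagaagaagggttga
Fasn: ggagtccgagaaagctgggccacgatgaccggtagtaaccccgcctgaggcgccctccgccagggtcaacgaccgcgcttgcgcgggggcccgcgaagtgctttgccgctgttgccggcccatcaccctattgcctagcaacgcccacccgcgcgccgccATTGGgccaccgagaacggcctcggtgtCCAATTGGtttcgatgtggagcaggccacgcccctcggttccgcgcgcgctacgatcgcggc
Fads2: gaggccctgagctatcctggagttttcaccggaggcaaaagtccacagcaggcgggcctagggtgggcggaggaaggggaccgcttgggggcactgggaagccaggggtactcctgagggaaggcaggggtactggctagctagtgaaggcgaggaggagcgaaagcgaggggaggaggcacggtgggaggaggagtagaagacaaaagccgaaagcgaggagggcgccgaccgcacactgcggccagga
Elovl6: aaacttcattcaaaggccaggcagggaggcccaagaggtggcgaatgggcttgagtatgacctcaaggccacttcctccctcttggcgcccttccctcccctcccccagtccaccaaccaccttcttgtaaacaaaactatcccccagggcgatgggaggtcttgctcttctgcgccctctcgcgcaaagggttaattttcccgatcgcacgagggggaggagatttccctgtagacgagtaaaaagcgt
Mvk held 5 matches in this stretch, Ebp 2 and Fasn 3, of which a pair overlap in the run CCAATTGG. Fads2 and Elovl6 held 0. In the GENCODE annotation Fads2 reaches to 10101746, so most of its window lies inside the gene. The end of the Elovl6 window also lies inside its gene, which starts at 129532355 there. These counts of 0 therefore depend on the start used.

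RefSeq windows from 250 bases before to 50 bases after a start were found for 25 of the 32 members. Every sterol enzyme with a window, 13 of 13, held CCAAT on either strand in at least 1 of its windows. Of the fatty acid enzymes 5 of 8 did (Acly, Fasn, Elovl1, Elovl5 and Lpcat3), and Acaca, Fads2 and Elovl6 did not. No window was found for 3 members of each branch, and the difference between the branches was not tested. Among the regulators it was 3 of 4, without Scap. Over all 27025 genes with a window the share was 41.1%, and over all 32851 windows it was 37.4%. The letters GGGCGG, which Sp1 binds, were present on either strand for 12 of 13 sterol enzymes, 4 of 8 fatty acid enzymes and 4 of 4 regulators, against 38.2% of all genes. The spellings TCACNCCAC and TCACNTGA, taken from SREBP sites, matched 0 of these 25 members on either strand, against 1.44% and 4.78% of all genes. The matches describe letters in these windows and not binding.

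The control library held 20678441 reads and the knockout 17741432. Levels below are normalised read counts, that is, reads times 1 factor per library, in which 1 read is worth 0.0248 in the control against 0.0238 in the knockout. They are not divided by gene length, so levels of different genes are compared only after division by the length of the longest annotated transcript. Because each genotype had a single library, the genotypes could not be tested against each other and no p-value is given. Values in parentheses are 95% intervals of the counting error alone, and a difference larger than its interval has still not been set against variation between cultures. Mmp9 was 139 in the control against 3.87 in the knockout, 36.0-fold lower (30.8 to 42.3). The summed level of 7 osteoclast markers was 6198 in the control against 199.6 in the knockout, with 7 of 7 lower by at least 2-fold, so the knockout culture had little of the RNA that defines the labelled cell type. Of 8 macrophage markers, 5 were higher and 1 (Cd68) was lower by at least 2-fold, and their sum was 1008 and 1362. In bulk RNA fewer osteoclasts and less RNA per osteoclast cannot be told apart, and the part of these shifts in the values below was not tested. Adipocyte markers, which would mark another lipid-making cell, summed to 0.373 and 0.736, and Adipoq, Plin1, Lep, Cfd and Cidec had no read in either library.

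Fads2 was the member with the highest ratio and Scd1 the one with the lowest, and the other 30 stayed within 2-fold. A gene was called higher or lower when the log2 ratio of the knockout level plus 1 over the control level plus 1 reached 1 in size, that is 2-fold, among 11126 genes with a mean level of at least 1. All 32 members passed that filter, and the fewest reads behind any member was 194. Of the 32, 1 was higher (Fads2), 1 was lower (Scd1) and 30 were within 2-fold. Among all compared genes 4.00% were higher, 9.58% lower and 13.6% past 2-fold in either direction, beside 6.25% of the members. At a threshold of 1.5-fold, added after the values were seen, 2 members were higher and 8 lower, or 6.25% and 25%, beside 8.56% and 23.2% of all compared genes, so at that threshold the members' shares were near the background. The median log2 ratio of the members was -0.29, and that of all compared genes -0.16. The members' ratios ran from -1.27 to 1.27, whereas those of all compared genes ran from -6.41 to 6.10. A range widens with the number of genes, and all compared genes include lower levels, so these ranges are not alike. Together the 32 genes took 0.618% of the reads in the control against 0.594% in the knockout.

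**Figure D1:**
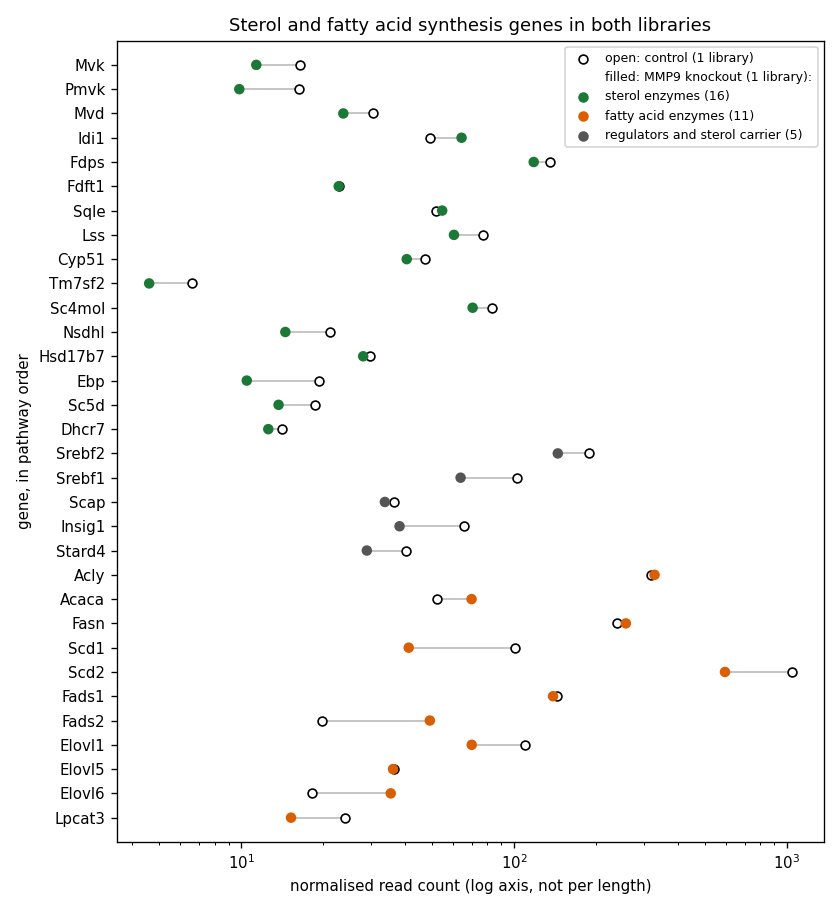
Normalised read counts (log axis, not per length) of the 32 genes in pathway order. Open circles are the control library, filled circles the knockout library, coloured by group, with 1 library each. The largest gaps between circles are those of Fads2, with the knockout to the right, and Scd1, with the knockout to the left.

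The 16 sterol enzymes were all within 2-fold, with 0 higher and 0 lower, beside 4.00% and 9.58% of all compared genes. Their median log2 ratio was -0.29, which is 0.13 below the median of all compared genes, and 14 of the 16 had a ratio below 0 (87.5%, beside 62.7% of all compared genes), a count that fell to 11 with the median ratio set to 0 and to 8 with equal sums. The ratios lay between -0.82 for Ebp and 0.38 for Idi1. Their standard deviation over genes was 0.29, against 0.80 over all compared genes, which include genes of lower level. The summed level of the 16 genes was 0.876 of the control in the knockout. As a share of all reads, however, they took 0.124% in the control but 0.133% in the knockout, so the direction of the sum depended on the scaling.

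In the steps from mevalonate to farnesyl diphosphate, 4 of 5 genes had a ratio below 0 as deposited, beside 62.7% of all compared genes. This count became 2 once ratios were centred by GC content and 3 with equal sums. Mvk, the mevalonate kinase gene, was 16.4 in the control against 11.4 in the knockout. Pmvk, which adds the next phosphate, was 16.3 and 9.86, a 1.65-fold lower level (1.46 to 1.87). Mvd, the decarboxylase gene, was 30.5 and 23.7. Idi1, whose isomerase makes the allylic building block, went the other way, at 49.2 in the control against 64.3 in the knockout, 1.31-fold higher (1.23 to 1.39). It was the largest positive difference of the sterol branch. Of the 50-base stretches in its longest transcript 30.5% also occur in transcripts of other genes, among them Gm13502 and the overlapping antisense gene Gm48574, so its reads may be shared. Fdps, the farnesyl diphosphate synthase gene, was 135 and 118. Of its 50-base stretches 11.7% occur in Gm43738, which overlaps it on the same strand, so part of its reads may belong there. Per kilobase of transcript it was the most abundant sterol enzyme in both libraries, at 45.9 and 40.01.

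The 3 genes that lead from farnesyl diphosphate to the first sterol stayed within 2-fold, as did all but 13.6% of all compared genes. Fdft1, the squalene synthase gene, was 22.8 in both libraries, with a fold of 0.999 (0.911 to 1.09). Its exons overlap those of Ctsb on the opposite strand, and 19.9% of its 50-base stretches occur in Ctsb transcripts. Ctsb, the cathepsin B gene, was 790 in the control against 429 in the knockout. Since the sources used here do not say whether counting used strand, reads from the shared stretches cannot be assigned to either gene. Sqle, the squalene epoxidase gene, was 51.8 and 54.6, and its interval (0.993 to 1.12) includes no difference. Lss, which closes the rings to lanosterol, was 77.03 and 60.3, 1.28-fold lower (1.21 to 1.35).

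All 8 genes from lanosterol to cholesterol had a ratio below 0 as deposited, beside 62.7% of all compared genes, though 2 of them (Hsd17b7 and Dhcr7) lay above the median of all compared genes. In addition 8 of 8 stayed within 2-fold, as did all but 13.6% of all compared genes. With equal sums 4 of them (Cyp51, Sc4mol, Hsd17b7 and Dhcr7) had a ratio above 0. Ebp, a sterol isomerase gene, was the lowest of them, at 19.2 in the control against 10.5 in the knockout, 1.83-fold lower (1.63 to 2.06). Nsdhl, a sterol dehydrogenase gene that lies like Ebp on the X chromosome, was 21.3 and 14.5. These were the members of the late pathway with the largest differences. Cyp51, the lanosterol demethylase gene, was 47.4 and 40.5. Sc4mol, the methylsterol monooxygenase gene, was 82.9 and 70.6. Hsd17b7, a ketosteroid reductase gene, was 29.7 and 28.03, with an interval that includes equal levels (0.870 to 1.02 as a fold of the control). For Tm7sf2, a sterol reductase gene and the least abundant member per kilobase, the levels were 6.61 and 4.61. Sc5d, the gene of the desaturase before the last step, was 18.7 and 13.7. Dhcr7, the gene of the last step, was 14.2 and 12.6, with an interval that includes equal levels (0.787 to 1.001 as a fold of the control).

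**Figure D2:**
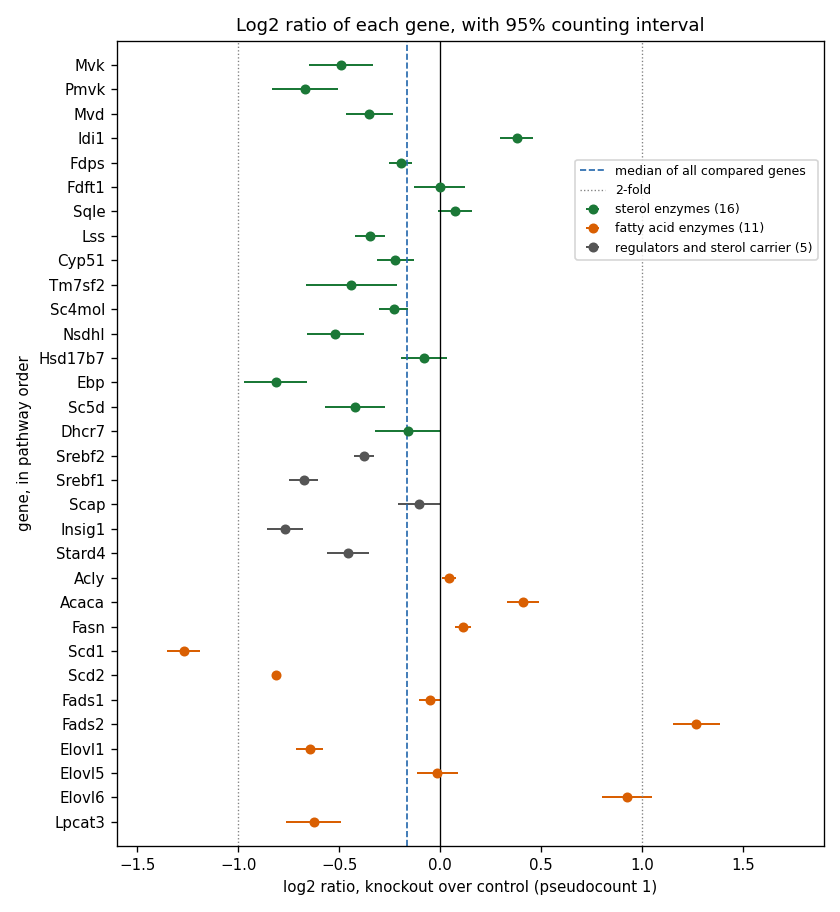
Log2 ratio of knockout over control (pseudocount 1) for each of the 32 genes in pathway order, with bars for the 95% counting interval. The sterol enzymes lie between -0.82 and 0.38, whereas the fatty acid enzymes reach from -1.27 (Scd1) to 1.27 (Fads2). The bars show counting error only.

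None of the regulators and the sterol carrier was past 2-fold, beside 13.6% of all compared genes. Their ratios were below 0 in 5 of 5 cases as deposited, beside 62.7% of all compared genes, with a median log2 ratio of -0.46, and 1 of the 5, Scap, lay above the median of all compared genes. Scap had a ratio above 0 with each of the 3 scalings and after centring by GC content, and Srebf2 after the latter. Insig1, which encodes a retention protein of the SCAP-SREBP complex and is itself an SREBP target, was 65.6 in the control against 38.1 in the knockout, 1.72-fold lower (1.62 to 1.83). Srebf1, the SREBP1 gene, was 102.5 and 63.8, 1.61-fold lower (1.53 to 1.69). Srebf2, the SREBP2 gene, was 188 and 145, 1.30-fold lower (1.26 to 1.35). Per kilobase Srebf2 exceeded Srebf1 by 1.56-fold in the control against 1.92-fold in the knockout. The gene-level table does not separate the transcript forms of Srebf1. Scap, the escort gene, was 36.3 and 33.7. Of the 50-base stretches of Scap 13.1% occur in the overlapping antisense gene 5830462I19Rik. Stard4, whose protein carries sterols between membranes, was 40.1 and 28.9, 0.721 of the control (0.669 to 0.778).

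The 11 fatty acid enzymes had a median log2 ratio of -0.01, which is 0.15 above the median of all compared genes, and they spread wider than the sterol enzymes, with a standard deviation over genes of 0.75 against 0.29. The median of the sterol branch was 0.28 below that of the fatty acid branch. No test was made of this difference, since genes are not replicates. The fatty acid median was below 0 as deposited but above 0 with each of the 3 scalings tried and after centring by GC content or length, while the sterol median stayed below 0 and below the fatty acid median in each alternative. The scalings shift both medians nearly alike, and the filters change neither. By summed level the order was the other way, at 0.777 of the control for the fatty acid enzymes beside 0.876 for the sterol enzymes. The fatty acid enzymes took 0.409% of all reads in the control and 0.388% in the knockout. Without Scd1 and Scd2 their summed level was 1.04 of the control. Of the 11 enzymes 1 was higher by at least 2-fold, 1 lower and 9 within 2-fold, so that 18.2% were past 2-fold, near the 13.6% of all compared genes.

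The genes that supply and assemble palmitate were level or slightly higher. Acly, which makes cytosolic acetyl-CoA for both branches, was 317 in the control against 328 in the knockout. Fasn, the fatty acid synthase gene, was 238 and 257, 1.08-fold higher (1.05 to 1.11). Acaca, the acetyl-CoA carboxylase gene, was 52.3 and 69.9, 1.34-fold higher (1.26 to 1.41). These were the 3 genes of this step in the list, and 3 of 3 had a ratio above 0. Over all compared genes 62.7% had a ratio below 0. For Acaca 52.6% of the 50-base stretches also occur in the gene Gm5182, so part of its reads may belong there.

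Of the 4 desaturase genes 1 was higher by at least 2-fold (Fads2), 1 was lower (Scd1) and 2 were within 2-fold (Scd2 and Fads1). Over all compared genes 4.00% were higher and 9.58% lower. Scd1, a stearoyl-CoA desaturase gene that makes monounsaturated fatty acids, was 101 in the control against 41.2 in the knockout, 2.45-fold lower (2.31 to 2.59). Its paralogue Scd2 was 1041 and 593, 1.76-fold lower (1.73 to 1.78). Scd2 was the most abundant member per kilobase in both libraries, 9.15-fold above Scd1 in the control against 12.8-fold in the knockout. The 2 genes lie in 1 cluster on chromosome 19, Scd1 at 44394455 to 44407879 on the minus strand and Scd2 at 44293674 to 44306864 on the plus strand in GRCm38. The other paralogues of the cluster, which are not members, were lower too, Scd3 at 66.8 and 40.6 and Scd4 at 31.6 and 17.8. Summed, the 4 Scd genes took 0.241% of all reads in the control but 0.164% in the knockout. Of the 50-base stretches of Scd1 4.66% also occur in other genes, with 3.49% in Scd3. Of those of Scd2 2.68% occur in Scd1. Scd2 had 41899 reads in the control and 24970 in the knockout, against 4054 and 1733 for Scd1, and the part of shared reads in the Scd1 values was not tested. Scd1 stood at percentile 5.81 of all compared ratios.

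Fads2, the desaturase gene of the first step toward long polyunsaturated fatty acids, was 19.9 in the control against 49.2 in the knockout, 2.48-fold higher (2.28 to 2.69). Its ratio stood at percentile 97.1 of all compared genes. Fads1, whose enzyme acts later in that route, was 144 and 139, with an interval that includes equal levels (0.931 to 1.002 as a fold of the control). The 2 genes are neighbours on chromosome 19, Fads2 at 10062765 to 10101746 on the minus strand and Fads1 at 10182888 to 10196877 on the plus strand in GRCm38, with 81142 bases between them. Per kilobase Fads1 was 6.60-fold above Fads2 in the control against 2.57-fold above it in the knockout. Fads2 was 0.302 of Scd1 per kilobase in the control and 1.83-fold above Scd1 in the knockout, so the order of Fads2 and Scd1 turned around. They are the members with the highest and the lowest ratio, and picking such a pair favours a change of order.

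Among the elongases, Elovl6, which lengthens palmitate, was 18.2 in the control against 35.4 in the knockout, 1.95-fold higher (1.78 to 2.13). Its log2 ratio with the pseudocount was 0.92, just short of 2-fold, at percentile 95.6 of all compared genes. Elovl6 lies on chromosome 3 at 129532355 to 129638495 on the plus strand in GRCm38. Elovl5, an elongase gene for polyunsaturated chains, was 36.4 and 36.1, a fold of 0.991 (0.921 to 1.07). Elovl1, whose enzyme makes very long saturated chains, was 110 and 70.03, 0.635 of the control (0.606 to 0.666). Per kilobase Elovl1 was 19.9-fold above Elovl6 in the control against 6.51-fold above it in the knockout. The 3 elongase genes therefore went 3 ways as deposited, 1 higher, 1 level and 1 lower, with intervals that do not overlap. Lpcat3, which places polyunsaturated chains into phospholipids, was 24.1 and 15.3, 1.58-fold lower (1.43 to 1.75). It overlaps Emg1 on the opposite strand, which was 56.4 and 55.9.

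**Figure D3:**
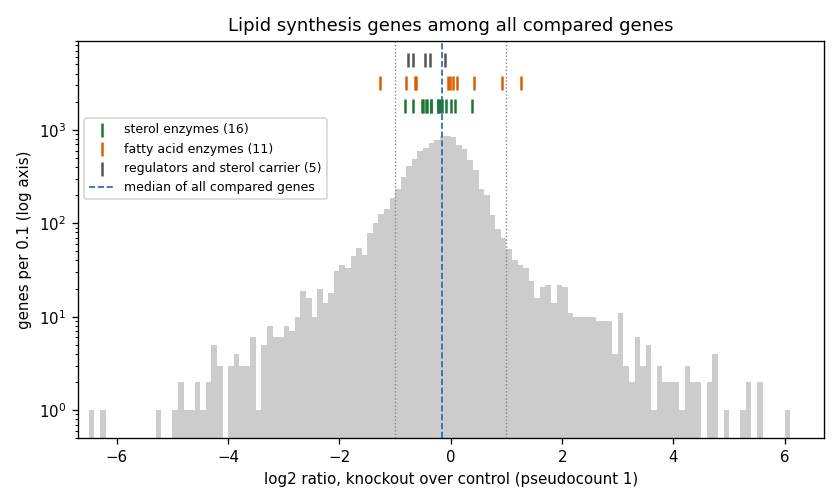
Histogram of log2 ratios (knockout over control, pseudocount 1) of the 11126 compared genes, with genes per bin of 0.1 on a log axis, and 1 tick for each lipid synthesis gene. The ticks stay near the centre, between -1.27 and 1.27, and the sterol ticks lie closer together than those of the fatty acid enzymes.

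Further genes of the pathway were read from lists chosen by function. Of 17 listed genes of the early sterol pathway, alternative reductases and isoprenoid use, 14 were compared and 14 were within 2-fold. Their median log2 ratio was -0.03. Among all compared genes 13.6% were past 2-fold in either direction, and the median was -0.16. Lbr, a lamin receptor with the same sterol reductase activity as Tm7sf2, was 39.4 in the control against 72.7 in the knockout, 1.85-fold higher (1.74 to 1.96). Tm7sf2 itself had a lower level in the knockout. Cyb5r3, which supplies electrons to sterol and fatty acid oxidases, was 78.4 and 46.5, and Ggps1, which makes the geranylgeranyl group, was 7.73 and 12.2. Genes of SREBP processing and turnover were within 2-fold in 14 of 14 compared cases, with a median of -0.30. The same background of 13.6% and -0.16 applies. The proteases that release SREBP went apart, with Mbtps1 at 56.1 and 45.9 and Mbtps2 at 53.2 and 76.4. Insig2 was 20.6 and 13.1, and Sec23a, a coat gene of the vesicles that carry SREBP, was 17.1 and 28.2.

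Among other genes of fatty acid supply and elongation 20 of 27 were compared, with 1 higher and 1 lower, or 5% each, beside 4.00% and 9.58% of all compared genes, and a median of -0.45. The higher one was Ptplb, the older symbol of Hacd2, which encodes a dehydratase of the elongation cycle, at 11.3 in the control against 31.8 in the knockout, 2.81-fold higher (2.53 to 3.14). Mid1ip1, whose protein activates acetyl-CoA carboxylase, was the lower one, at 34.1 and 13.1, 2.61-fold lower (2.36 to 2.89). Acss2, an acetate-activating enzyme gene, was 14.3 and 9.22, and Mcat, of mitochondrial fatty acid synthesis, was 9.81 and 5.27. Acacb, the second carboxylase gene, was too low for comparison, at 1.14 and 0.451.

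Sterol uptake, export and oxysterol genes had a median of -0.61, with 4 of 17 compared genes lower by at least 2-fold and 0 higher, or 23.5% and 0%, beside 9.58% and 4.00% of all compared genes. Whether this list differs from the synthesis enzymes was not tested. Stard3, a sterol transfer gene of late endosomes, was 38.5 and 14.6, 2.63-fold lower (2.40 to 2.89). Nceh1, a cholesteryl ester hydrolase gene, was 21.5 and 7.93, 2.71-fold lower (2.38 to 3.08). Npc2, which hands cholesterol out of lysosomes, was 173 and 74.7, and Npc1, its membrane partner, named after its value was seen, was 81.6 and 40.2. Abca1, a sterol exporter gene, was 3.45 and 3.14. Ch25h, an interferon-inducible oxysterol synthase gene named after its values were seen, had no read in either library. With 3 reads as the limit, a count of 0 still allows a level of 0.0745 for the control library and 0.0713 for the other. Osteoclast markers were lower in the same comparison, with the sums given above, and their part in the low Stard3, Npc1 and Npc2 levels was not tested.

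**Figure D4:**
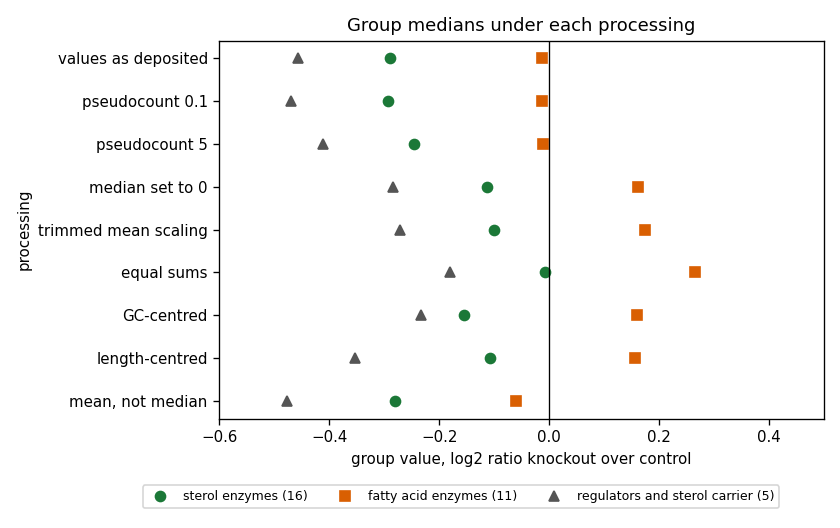
Median log2 ratio (knockout over control) of the sterol enzymes (circles), fatty acid enzymes (squares) and regulators with the sterol carrier (triangles) under 9 ways of processing. The bottom line shows means. The sterol value lies left of the fatty acid value on every line, and the fatty acid value changes side of 0 with the scaling. A scaling shifts both values nearly alike by construction.

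The ratios moved with the scaling of the libraries. As deposited, 445 of all compared genes lay above and 1066 below the 2-fold limits. With the median log2 ratio set to 0, this became 572 and 799, and Fads2 and Elovl6 were then higher and Scd1 lower among the members. Equal sums gave 691 and 684, and then 2 members were higher, Fads2 and Elovl6, and 0 lower, with Scd1 at -0.99. The log2 ratios of 21 of 32 members kept their sign in each of 9 alternatives, among them Fads2, Elovl6, Idi1, Acaca, Scd1, Scd2, Ebp, Insig1 and Srebf1. The other 11, such as Srebf2, Cyp51, Sc4mol and Scap, changed sign in at least 1 of them. By construction the pseudocounts cannot change a sign, and the filters left every member's ratio as it was. Only the scalings and the centring by GC content or length could change a sign. The scalings raised each ratio, so they could turn only ratios below 0. No such count is given for all compared genes. Transcript GC content moved with the ratio over all compared genes, with a Spearman rho of -0.31 over 10707 genes, and of -0.11 over the 32 members. Genes are not independent and share both libraries, so these are descriptions. After centring in bins of GC content the sterol median was -0.16, the fatty acid median 0.16, Fads2 1.57 and Scd1 -1.23.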

How the data were processed

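RNA of 1 control and 1 MMP9 knockout library was analysed. Reads were aligned with TopHat to mm9, per the submitters' processing notes; the counting program, annotation, strand use and normalisation are nowhere stated in these sources. The authors deposited log2 values for 26037 genes, titled as normalised RPKM. After conversion 99.99% of the values above the lowest in each library lay within 0.05 of a whole multiple of 1 step, the same for every gene, so they were read as scaled counts without division by length. The lowest value, 0.9 of a step, was set to 0.

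Log2 ratios used a pseudocount of 1, a mean of at least 1 and a threshold of 2-fold. A pseudocount understates the change of low genes. Fold intervals are exact conditional binomial 95% intervals of the recovered reads, without a pseudocount. Without molecular identifiers reads may be copies of 1 molecule, so intervals and limits cover counting error only. Length, GC content, overlaps and positions came from GENCODE M21 (GRCm38, matched by Ensembl identifier), another build than that of the alignment; 96.2% of compared genes had a GC value. Shared sequence is the percent of 50-base stretches of the longest transcript found in transcripts of another gene. Promoters came from RefSeq (GRCm38.p6). The scripts (Python 3.11.15) were tested on simulated data.

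Alternatives were pseudocounts of 0.1 and 5, no filter or a mean of at least 5, 3 scalings (median 0, trimmed mean, equal sums), centring by GC content or by length (20 bins each), means, and other branch assignments. Leaving out members with over 10% shared stretches was chosen after seeing the data. The members and lists were chosen with earlier results of these data known. Named genes are all members, Mmp9, and from each list the first 2 genes and the 3 compared genes with the largest ratio; some of these are not reported here, and others are marked or were chosen as paralogues or overlapping genes.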

Additional observations from a re-analysis of the deposited data

How the results depend on the processing

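No paired analysis was possible because each genotype had a single library, so none could be left out either. With the median ratio set to 0, by a trimmed mean and with equal sums the count of members higher by at least 2-fold was 2 in place of 1, and with equal sums 0 in place of 1 were lower. In the same order the sterol median was -0.11, -0.10 and -0.0070, the fatty acid median 0.16, 0.17 and 0.27, and the median of the regulators and the sterol carrier -0.28, -0.27 and -0.18; a scaling shifts all ratios together by construction. Centring by GC content gave -0.16, 0.16 and -0.23, and centring by length -0.11 for the sterol and 0.16 for the fatty acid branch. Without members that share over 10% of their 50-base stretches the regulator median was -0.57, since Scap left the list. The difference of the sterol and fatty acid medians stayed between -0.34 and -0.22 in each alternative run. The scalings and filters leave this difference nearly or wholly unchanged by construction, so only the other alternatives could move it. Among the further lists the order was the other way, with a median of -0.03 for the early sterol and isoprenoid list and -0.45 for other fatty acid supply and elongation. The pseudocounts, filters, means and branch assignments moved no other median beyond its counting interval. For single members 149 alternative values stayed inside the counting interval and 139 did not. The 2 members past 2-fold kept their sign, which the pseudocounts and filters could not change by construction. Dropping the filter or asking for a mean of at least 5 left every member's value unchanged. Those values count among the 149 by construction, so the 149 overstate how stable the members were.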

Other observations

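Genes that build phospholipids and triglycerides were read from another list chosen by function. Of 20 listed genes 19 were compared, with 2 higher, 3 lower and 14 within 2-fold (10.5% higher and 15.8% lower, beside 4.00% and 9.58% of all compared genes), a median log2 ratio of -0.29 and a range from -2.06 to 1.21. Of the lysophosphatidylcholine acyltransferase genes read here, Lpcat1 and the member Lpcat3, given above, had lower levels in the knockout and Lpcat2 a higher one. Lpcat1, known for making dipalmitoyl phosphatidylcholine, was 291 in the control against 69.1 in the knockout, 4.21-fold lower (4.04 to 4.39). Lpcat2, which also makes the lipid mediator platelet-activating factor, was 3.43 and 9.24, 2.69-fold higher (2.21 to 3.30). Pla2g4a, the cytosolic phospholipase gene that releases arachidonic acid, was 45.6 and 93.0, 2.04-fold higher (1.93 to 2.16). Pcyt1a and Chpt1, which act in phosphatidylcholine synthesis and are named after their values were seen, were 99.9 and 49.2, and 8.65 and 3.80. Gpam, the first acyltransferase of glycerolipid synthesis, was 15.4 and 18.1, and Agpat1, the next acyltransferase, was 38.3 and 31.1. These values come from 1 library per group and have no replicate check.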
